A study of Mus musculus with 80 samples.

Results

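Kupffer cells are the macrophages that live in the sinusoids of the liver, and 8 genes that mark them were followed through a fast: Adgre1 (ENSMUSG00000004730.16), Clec4f (ENSMUSG00000014542.4), Cd5l (ENSMUSG00000015854.8), Timd4 (ENSMUSG00000055546.7), Marco (ENSMUSG00000026390.8), Vsig4 (ENSMUSG00000044206.4), Cd68 (ENSMUSG00000018774.14) and Csf1r (ENSMUSG00000024621.17). They were chosen by symbol, 8 of the 78275 genes listed in the count table, and all 8 were among the 21187 genes with enough counts to test. The livers came from C57BL/6J mice bought at an age of 8 to 12 weeks, kept on standard chow and a 12 h light and 12 h dark cycle for 10 days and then in constant darkness. Control mice had food throughout, whereas fasted mice lost theirs at circadian time (CT) 10, so the CT8 livers labelled fasted were taken before food removal. Every 4 h from CT8 to CT44, 2 males and 2 females of each treatment gave 1 poly(A) RNA library per mouse from a piece of the left lobe, 80 libraries in all. No allele was altered in any group. The titles were used for treatment and sex, since other label fields disagreed with them. Xist ran from 915 to 1614 CPM (counts scaled to library size with TMM factors) in the 40 libraries titled female and from 0.0237 to 2.05 CPM in the 40 titled male.

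Kupffer cells settle in the liver before birth, renew themselves there and clear microbes, immune complexes, ageing red blood cells and other particles from portal blood. Survival of the cells depends on the receptor encoded by Csf1r, which binds the growth factors CSF1 and IL-34, and their identity on transcription factors that include PU.1 (gene Spi1), the liver X receptor alpha (Nr1h3) and ID3. Clec4f, a C-type lectin, is the most restricted of the markers in mice. Adgre1 (the F4/80 antigen), Cd68 (a late endosomal and lysosomal glycoprotein) and Csf1r are found on many macrophages. The others encode surface and secreted proteins of clearance: Vsig4 the complement receptor CRIg, Timd4 a receptor for phosphatidylserine on dying cells, Marco a scavenger receptor, and Cd5l a secreted protein also called AIM. In whole liver, fewer Kupffer cells and less RNA per Kupffer cell cannot be told apart.

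The promoters of 4 members are shown because the 8 genes varied together between livers and PU.1 is a known regulator of macrophage genes. Each run holds the 250 bases before the transcription start of the RefSeq table on GRCm38.p6, an older assembly than that named for the counts, and the capitals mark the PU box GAGGAA on either strand. RefSeq promoters were matched for 6 of the 8 members: Clec4f, Cd5l, Timd4, Marco, Vsig4 and Cd68.
Cd5l, chr3:87357631-87357880, plus strand: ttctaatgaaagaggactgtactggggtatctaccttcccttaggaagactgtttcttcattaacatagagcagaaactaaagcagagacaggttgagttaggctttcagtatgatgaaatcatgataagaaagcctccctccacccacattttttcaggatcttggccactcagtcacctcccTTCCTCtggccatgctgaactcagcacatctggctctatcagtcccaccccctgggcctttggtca
Vsig4, chrX:96293439-96293688, minus strand: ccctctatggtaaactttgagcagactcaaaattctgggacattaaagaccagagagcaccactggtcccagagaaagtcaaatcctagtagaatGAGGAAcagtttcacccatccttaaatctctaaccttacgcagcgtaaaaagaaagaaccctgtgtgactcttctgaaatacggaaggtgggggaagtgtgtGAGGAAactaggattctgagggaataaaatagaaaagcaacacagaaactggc
Marco, chr1:120505025-120505274, minus strand: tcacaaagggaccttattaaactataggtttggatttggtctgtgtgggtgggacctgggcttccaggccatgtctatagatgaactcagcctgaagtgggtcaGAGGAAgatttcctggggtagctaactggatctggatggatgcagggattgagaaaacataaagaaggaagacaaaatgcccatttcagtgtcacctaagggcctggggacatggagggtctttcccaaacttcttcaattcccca
Clec4f, chr6:83656117-83656366, minus strand: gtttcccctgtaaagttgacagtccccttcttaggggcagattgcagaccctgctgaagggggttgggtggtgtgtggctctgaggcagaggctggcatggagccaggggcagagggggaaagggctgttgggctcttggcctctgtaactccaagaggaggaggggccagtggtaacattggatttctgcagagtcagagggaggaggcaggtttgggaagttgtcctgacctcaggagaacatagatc
A PU box was present in 4 of the 6 promoters, those of Cd5l (beginning 66 bases before the start), Marco (146 bases), Cd68 (225 bases) and Vsig4 (155 and 53 bases), and in 23.3% of the 32851 promoters in the table over the same length. The E-box CACGTG, the sequence that CLOCK and BMAL1 bind, was in none of the 6 and in 6.02% of all promoters. These matches describe letters and not bound sites.

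Between 25534901 and 59927771 counts were assigned to genes per library (median 42303883). The lowest count of a member was 82, for Marco, so counting error was small beside the spread between mice. Some libraries stood apart. In control CT40 female 1 all 8 members were above the other 3 libraries of their group, with a median log2 excess of 1.13, and 15 of 19 general macrophage genes were too. In control CT8 female 2 all 8 members were above the other 3, with a median log2 excess of 0.86, while 31.3% of its counts fell on the ribosomal RNA gene Rn18s-rs5, against at most 4.88% in any other library. In control CT28 female 2, 5 of 8 members (median log2 excess 0.84), 16 of 19 general macrophage genes and 6 of 6 neutrophil markers were above the other 3 libraries. The main results that rest on the first 2 of these libraries are given with and without them. In each case the other 3 libraries held both males of that time, and the members were higher in control females (median log2 difference 0.56). The part of sex in these excesses was not tested.

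In control livers, the members differed widely in level once counts were divided by exon length. Per kilobase of exon, Cd5l had the highest median (49.8 CPM per kb, 28.8 to 109 over 40 libraries) and Clec4f the next (45.9, 32.1 to 61.6). Cd5l exceeded Clec4f in 24 of the 40 libraries, so the order of this pair was within their spread. Vsig4 followed at a median of 26.6, Csf1r at 14.9, Cd68 at 10.5 and Adgre1 at 7.58 CPM per kb, and each of Clec4f, Vsig4, Csf1r, Cd68 and Adgre1 was above the gene after it in 34 to 40 of the 40 libraries. Marco (4.08 CPM per kb) and Timd4 (3.98) closed the order and were not separated, Marco being above Timd4 in 17 libraries. Marco was also the most variable member: its standard deviation between mice of one treatment, time and sex was 0.96 on the log2 scale, higher than in 98.5% of the genes tested, whereas that of Clec4f was 0.19.

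The comparison of fasted with control livers over CT12 to CT44 asks what food removal did to these markers. Of the members 7 fell, and Marco did not pass the test. Adgre1 was at 16.4 ± 6.78 CPM (SD, n = 36) in fasted and 26.0 ± 12.6 CPM (n = 36) in control livers, a log2 difference of -0.67 ± 0.08 (SE, adjusted p = 1.43e-09, edgeR's quasi-likelihood test with Benjamini-Hochberg adjustment over all genes tested). Clec4f fell from 112 ± 22.3 to 91.3 ± 29.8 CPM (-0.34 ± 0.04 in log2, adjusted p = 5.49e-09), the most precise of the estimates. The clearance genes Cd5l (-0.45 ± 0.08, adjusted p = 7.87e-06), Timd4 (-0.40 ± 0.08, adjusted p = 3.43e-05) and Vsig4 (-0.32 ± 0.06, adjusted p = 4.18e-06) fell by similar amounts, as did Cd68 (-0.42 ± 0.06, adjusted p = 4.81e-08) and Csf1r (-0.35 ± 0.06, adjusted p = 6.17e-07). Marco had almost equal means, 12.1 CPM in each treatment, with a log2 difference of 0.26 ± 0.21 (adjusted p = 0.284). Of all genes tested, 32.9% passed the same test as lower in fasted livers and 62.5% in either direction, and the median log2 difference was -0.02 for all genes and -0.38 for the members. Without control CT40 female 1 the 7 still fell (-0.30 to -0.61), and Marco passed as higher in fasted livers (0.45, adjusted p = 0.0365). Differences between members were not tested.

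**Figure D1:**
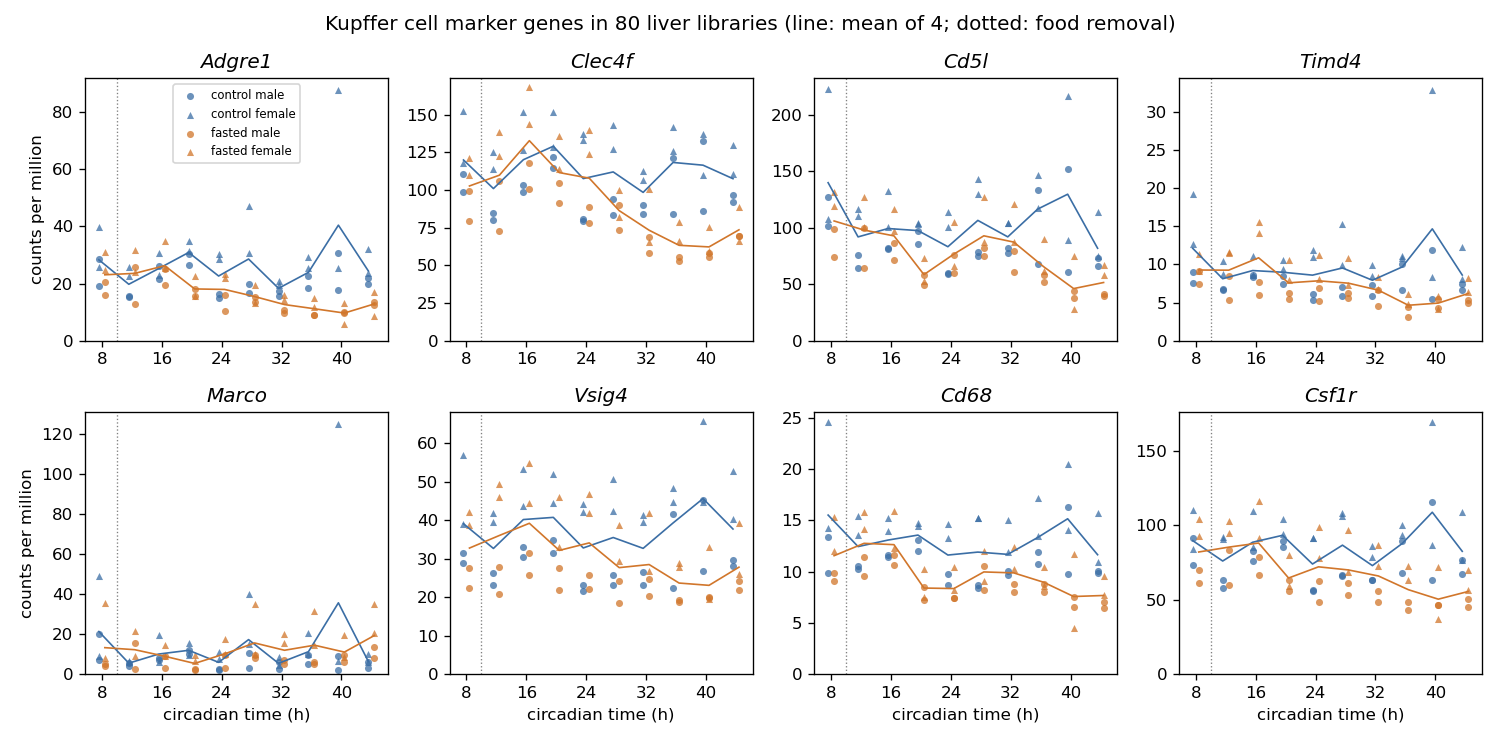
CPM of each member (y axis, from 0) against circadian time in hours (x axis) in 80 liver libraries; points are single mice (circles male, triangles female), lines the means of 4 mice, blue control and orange fasted, and the dotted line food removal at CT10. From CT36 the fasted means of every member but Marco lie below the control means, and the control female at CT40 with 125 CPM of Marco stands above all other libraries.

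The members were also lower, without passing the test, before food was removed. At CT8 all 8 log2 differences were below 0 (-0.15 for Csf1r to -0.96 for Marco), none passed the test, and 1.33% of all genes tested did in either direction. Cd5l, for example, was at 102 and 128 CPM in control males and 108 and 223 CPM in control females, against 99.0 and 74.3 CPM in males and 132 and 119 CPM in females that were to be fasted. The groups overlapped, and the highest value was that of control CT8 female 2. Without that library the 8 differences ran from -0.17 (Cd68) to -0.04 (Csf1r). When the difference at CT8 was subtracted from the mean over CT12 to CT44, none of the 8 members passed (-0.37 for Adgre1, adjusted p = 0.349; -0.02 to -0.20 for the other 6 that had fallen, adjusted p = 0.483 to 1.00), and 4718 of all genes did. With the same subtraction but without control CT8 female 2, none passed either, at -0.54 for Adgre1 (adjusted p = 0.219), -0.36 for Cd5l, -0.31 for Csf1r and -0.21 to -0.25 for the other 4. This subtraction, chosen after seeing the data, sets 36 libraries per treatment against 4 at CT8, so its error is larger.

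By a linear trend the difference grew with time, but its course was not steady. The median log2 difference of the 8 members was -0.61 at CT20, -0.05 at CT24, -0.21 at CT32, -1.03 at CT40 and -0.56 at CT44. A slope over these times cannot tell hours without food from circadian phase. Between CT12 and CT44 the log2 difference of the same 7 members fell by 0.20 (Cd68) to 0.48 (Adgre1) for each further 10 h (adjusted p = 4.09e-07 for Clec4f to 0.00835 for Cd68), a comparison in which CT8 plays no part. Marco had a slope of 0.11 ± 0.20 (adjusted p = 0.75). Without control CT40 female 1 the 7 still passed, with slopes from -0.18 (Cd68) to -0.40 (Adgre1), and that of Marco was 0.33 (adjusted p = 0.212). Cd68 lost its call when the mean of CT12 to CT24 was subtracted from that of CT32 to CT44 (adjusted p = 0.0867), and Cd68 and Cd5l lost theirs without male replicate 1 (adjusted p = 0.197 and 0.105) or 2 (0.12 and 0.0628). Blood cell markers fell along with the members: 6 of 6 erythroid genes had a falling trend, and their part in the result was not tested. A falling trend was called in 12.6% of all genes tested. At CT12 and CT16, after 2 and 6 h without food, no member passed, against 1.6% and 23.4% of all genes in either direction. At CT12 all 8 differences were above 0 (0.03 to 1.11), and at CT16 they ran from -0.20 to 0.14.

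After 10 h without food, at CT20, 4 members were lower. Adgre1 was at 30.4 and 26.7 CPM in control males and 34.9 and 31.6 CPM in control females, and at 15.7 and 18.2 CPM in fasted males and 15.8 and 22.8 CPM in fasted females (-0.77 ± 0.25, adjusted p = 0.0123). Cd68 was at 13 and 12.0 CPM in control males, 14.7 and 14.4 CPM in control females, 7.25 and 8.50 CPM in fasted males and 7.53 and 10.3 CPM in fasted females (-0.69 ± 0.18, adjusted p = 0.00187). Neither gene overlapped between treatments. Cd5l (-0.74 ± 0.25, adjusted p = 0.0171) and Csf1r (-0.53 ± 0.17, adjusted p = 0.0123) also passed, with every fasted liver below every control liver. Marco did not overlap either, but its control males, at 12.0 and 10.2 CPM, and its fasted males, at 2.73 and 2.21 CPM, stood further apart than its females, the lowest control female being at 9.73 and the highest fasted female at 9.67 CPM, and the gene missed the threshold (-1.40 ± 0.64, adjusted p = 0.0811). All 4 fasted livers lay below all 4 controls in 5 of 8 members and in 14.7% of the genes tested, and 19.1% of genes were called lower. Leaving out male replicate 1 of every group left 0 members past the threshold at CT20, and leaving out male replicate 2 left Cd68 alone, while the genes called in either direction went from 7757 to 4789 and 4784.

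Fewer members passed at the next times. None did at CT24, the only one to do so at CT28 was Adgre1 (-0.79 ± 0.25, adjusted p = 0.0179) and at CT32 it was Clec4f (-0.43 ± 0.13, adjusted p = 0.0194). Adgre1 lost its call at CT28 without male replicate 1 or 2 (adjusted p = 0.193 and 0.175) and kept it without female replicate 2 (-0.77, adjusted p = 0.0138), the number that control CT28 female 2 carries. Clec4f lost its call at CT32 without male replicate 1 or 2 (adjusted p = 0.173 and 0.103) or female replicate 1 (-0.27, adjusted p = 0.297). At CT24, 24.1% of all genes were called in either direction, and 11.1% at CT28 and 9.3% at CT32 were called lower. At CT36, 26 h after food removal, 7 members were lower, from -0.56 ± 0.18 for Cd68 (adjusted p = 0.0160) to -1.11 ± 0.25 for Adgre1 (adjusted p = 0.000804), against 14.0% of all genes. Clec4f, the marker most restricted to Kupffer cells, was at 121 and 84.2 CPM in control males and 142 and 126 CPM in control females, and at 55.5 and 52.9 CPM in fasted males and 66.0 and 79.2 CPM in fasted females (-0.90 ± 0.13, adjusted p = 1.50e-06). Timd4 was at 10.1 and 6.60 CPM in control males, 10.9 and 11.1 CPM in control females, 4.48 and 3.12 CPM in fasted males and 4.86 and 6.16 CPM in fasted females (-1.07 ± 0.25, adjusted p = 0.000914). Every fasted liver lay below every control liver in these genes and in Adgre1 and Cd68, 4 of 8 members against 10.5% of all genes. The treatments were free of overlap in either direction in 21.5% of all genes. Leaving out male replicate 1 of every group kept the calls of Clec4f and Timd4 alone, and leaving out male replicate 2 left 4 members past the threshold, with 2625 and 2546 genes called in place of 5672.

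**Figure D2:**
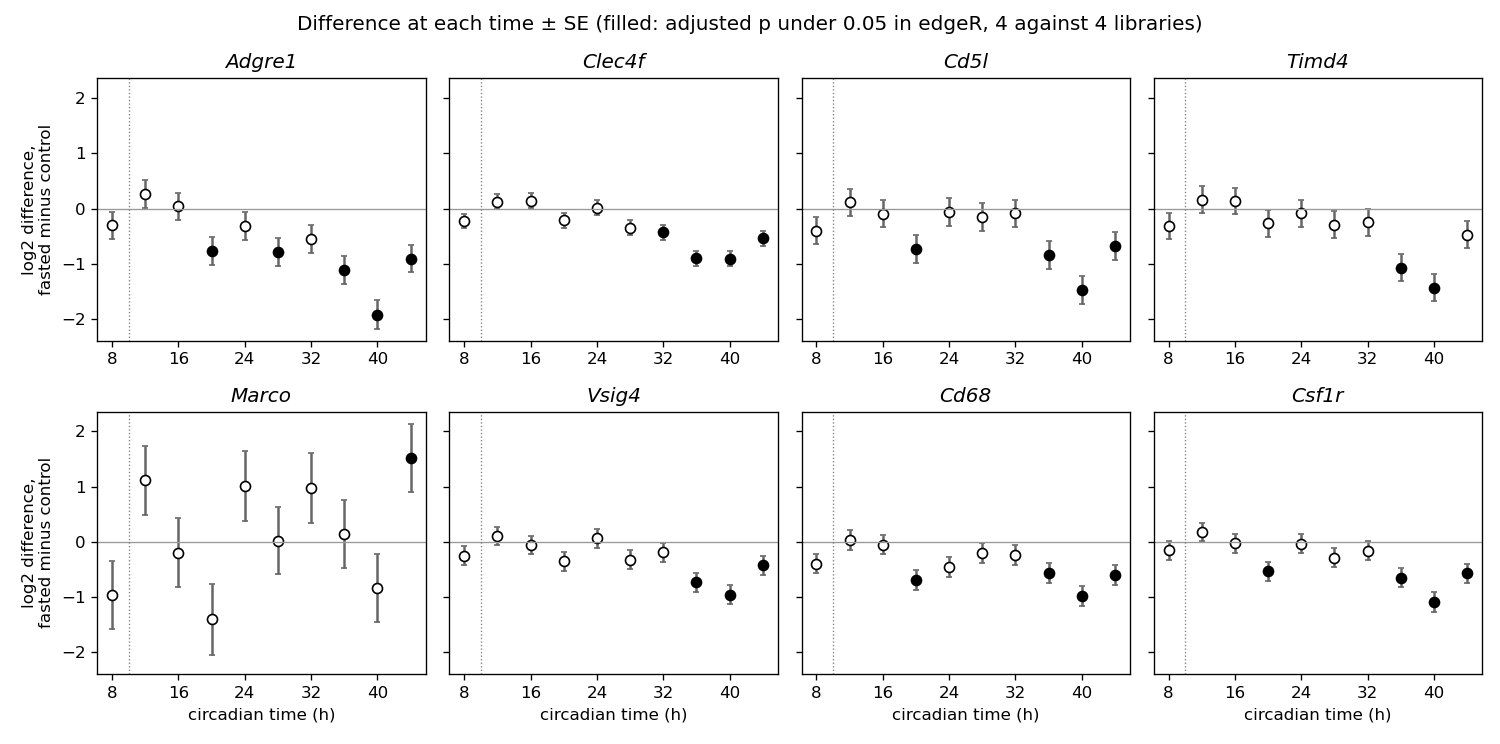
Log2 difference, fasted minus control, of each member (y axis) at each circadian time in hours (x axis), with bars of 1 SE from edgeR and filled points where the adjusted p was under 0.05; 4 against 4 libraries at each time, the dotted line marking food removal. After food removal all 8 genes lie below 0 at CT20 and CT40, and the 7 other than Marco also at CT28, CT32, CT36 and CT44. The point of Clec4f is as low at CT36 (-0.90) as at CT40 (-0.91). Marco has wider bars and lies on both sides of 0, from -1.40 at CT20 to 1.52 at CT44.

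At CT40, after 30 h without food, 7 members were lower and fasted livers held 26.4% (Adgre1) to 53.4% (Clec4f) of the control level and 21.2% of all genes were called lower. Adgre1 was at 30.7 and 17.9 CPM in control males, 87.7 and 25.6 CPM in control females, 9.74 and 9.95 CPM in fasted males and 13.3 and 5.82 CPM in fasted females (-1.92 ± 0.26, adjusted p = 5.81e-08). Clec4f was at 133 and 85.8 CPM in control males, 137 and 110.2 CPM in control females, 55.5 and 58.2 CPM in fasted males and 75.8 and 59.8 CPM in fasted females (-0.91 ± 0.13, adjusted p = 4.38e-07). In these 2 members every fasted liver lay below every control liver, against 14.2% of all genes. No other member was free of overlap in either direction, against 26.7% of all genes that were. Cd5l was at 152 and 61.0 CPM in control males, 217 and 89.0 CPM in control females, 37.9 and 43.9 CPM in fasted males and 74.8 and 28.3 CPM in fasted females (-1.47 ± 0.25, adjusted p = 7.02e-06), so that the lower control male lay below the higher fasted female. The highest control value of all 8 members was that of control CT40 female 1. Without it the 7 members still passed, at -1.33 for Adgre1, -1.06 for Cd5l, -0.81 for Cd68, -0.80 for Clec4f, -0.79 for Vsig4, -0.79 for Csf1r and -0.77 for Timd4, the last against -1.43 with it. The differences of Clec4f and Timd4 were then smaller than at CT36 (-0.90 and -1.07), while with it all 7 were lowest at CT40. At the same time 5 of 6 erythroid markers were lower in fasted livers (median -1.46, summed level 33.0 to 99.1 CPM against 75.6 to 272 CPM in control livers), as were 17 of 19 general macrophage genes (median -1.05), and their part in the result was not tested. Both lists were compared with control CT40 female 1 included. Against the other control livers at CT40 its median log2 excess was 0.94 for the general macrophage genes and -0.73 for the erythroid markers. Marco, at 9 and 2.17 CPM in control males and 125 and 6.31 CPM in control females, turned from -0.84 ± 0.62 (adjusted p = 0.297) to 0.87 (adjusted p = 0.318) when that library was left out.

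At CT44, after 34 h, 6 members were lower and Marco was higher. Clec4f was at 92.3 and 97.0 CPM in control males, 111 and 130.0 CPM in control females, 69.8 and 69.8 CPM in fasted males and 66.5 and 88.5 CPM in fasted females (-0.54 ± 0.13, adjusted p = 0.0011). Adgre1 (-0.91 ± 0.25, adjusted p = 0.00329), Cd68, Csf1r, Cd5l and Vsig4 were lower as well. Vsig4 lost its call with DESeq2's size factors (adjusted p = 0.0564) and upper quartile scaling (adjusted p = 0.0554), and Vsig4 and Cd5l each lost theirs without 3 of the 4 replicate numbers. Timd4 missed the threshold (-0.48 ± 0.24, adjusted p = 0.119). Every fasted liver was below every control liver for Adgre1, Clec4f and Cd68, against 16.2% of all genes. Marco was at 2.86 and 6.03 CPM in control males, 6.19 and 10.2 CPM in control females, 8.03 and 13.4 CPM in fasted males and 20.5 and 35.3 CPM in fasted females. Its difference was 1.52 ± 0.62 (adjusted p = 0.0487). Within each sex both fasted livers were above both controls, while the treatments overlapped across the sexes. The call missed the threshold with limma voom (adjusted p = 0.0967), the replicate block (adjusted p = 0.0516), upper quartile scaling (adjusted p = 0.0507) and without any one of the 4 replicate numbers (adjusted p = 0.059 to 0.208). Leaving out male replicate 2 left 1 member past the threshold and male replicate 1 left 3. Genes called lower and higher at CT44 were 20.7% and 18.7% of those tested.

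All 8 members were higher in female than in male control livers, against 20.6% of all genes tested. Vsig4 had a median of 44.4 CPM in the 20 control females (39.0 to 65.9) and 27.5 CPM in the 20 control males (21.7 to 45.2), a log2 difference of 0.70 ± 0.08 (adjusted p = 3.88e-10). Clec4f had medians of 128 CPM (107 to 152) and 93.2 CPM (79.4 to 133), a difference of 0.42 ± 0.06 (adjusted p = 1.38e-07) and the smallest of the 8. The ranges of the sexes overlapped for both genes, while the medians stood apart. Marco had the largest difference, 1.26 ± 0.28 (adjusted p = 0.000309), with a median of 9.94 CPM (4.44 to 125) in females and 6.15 CPM (2.11 to 19.9) in males, and 0.91 (adjusted p = 0.00363) without control CT40 female 1. Without that library all 8 remained past the threshold, and without control CT8 female 2 they did too, from 0.40 (Clec4f) to 1.09 (Marco). Several other lists were also higher in control females. In that direction 18 of 19 general macrophage genes, 10 of 11 sinusoidal endothelial and 9 of 9 stellate cell markers passed, with median differences of 0.46, 0.25 and 0.44. Cholangiocyte markers split, 3 higher and 2 lower of 7. Hepatocyte markers were higher for 1 and lower for 3 of 8 (median -0.09), and erythroid markers were lower in females for 5 of 6 (median -0.50). The part of these genes in the result was not tested. The fasting difference itself was not called as differing between the sexes for any member (-0.24 ± 0.17 for Adgre1 to 0.04 ± 0.41 for Marco, adjusted p from 0.394), against 12.4% of all genes.

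**Figure D3:**
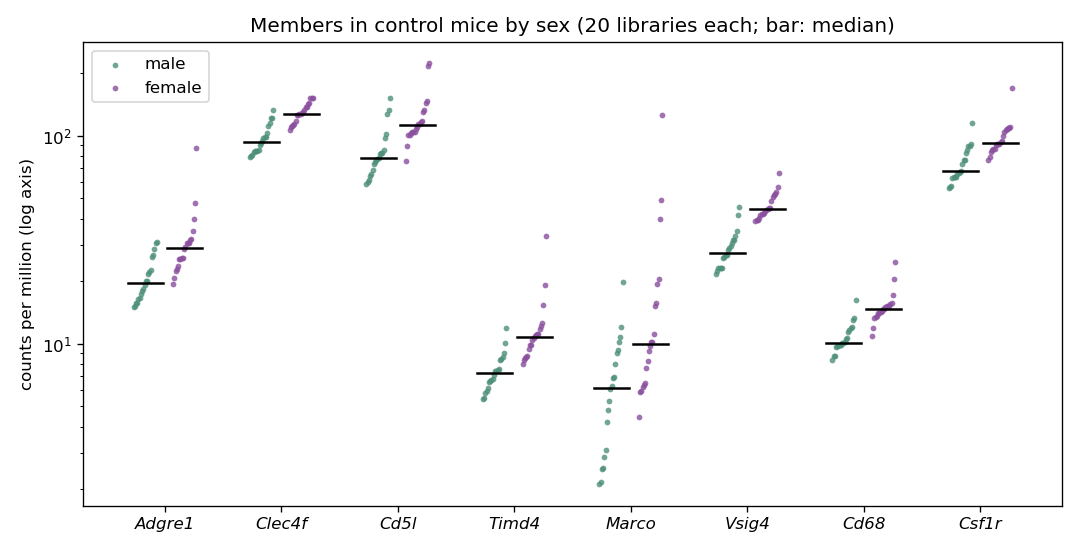
CPM (y axis, log scale) of the 8 members (x axis) in control livers, 20 male (green) and 20 female (purple) libraries from CT8 to CT44, with the black bar at the median. The female median lies above the male median for every member, and Marco spans the widest range, from 2.11 to 125 CPM.

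Few of these genes were called for a daily rhythm. In simulated counts the test found 28.5% of 200 genes given a peak-to-trough difference of 0.5 in log2. Those genes were drawn from all genes tested, so the share found among genes with the counts and spread of the members is not known. A missed call was not read as the absence of a rhythm. A 24 h cosine was called in 41.8% of the 20114 genes tested in control livers and among the members only in Vsig4, whose fitted log2 level peaked at CT16.2 and stood 0.31 above its trough (adjusted p = 0.0481). Vsig4 lost that call without control CT40 female 1 (adjusted p = 0.113) under 8 other settings and without any one of the 4 replicate numbers. The other members had peak-to-trough differences from 0.14 (Clec4f) to 0.57 (Marco) and adjusted p from 0.156 to 0.725. A difference in rhythm between treatments was called in Cd5l alone (adjusted p = 0.0319, peak-to-trough 0.31 with a peak at CT12.9 in control and 0.64 with a peak at CT6.54 in fasted livers), against 23.2% of 20965 genes. The call was lost without control CT40 female 1 (adjusted p = 0.0696) and in a fit with no linear term for time (adjusted p = 0.0887).

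The lower counts of the 7 members that fell were spread over all of their counting bins that were tested. For Adgre1 27 of 32 listed bins were tested and for Csf1r 27 of 35, and the first numbered bins of both were not among them. Of the counting bins with enough reads, all 27 of Adgre1, 11 of Clec4f, 6 of Cd5l, 9 of Timd4, 10 of Vsig4, 9 of Cd68 and 27 of Csf1r had a log2 difference below 0, and all 18 of Marco had one above 0. No member was called for a change in relative exon usage (adjusted p of 1.00 for each by edgeR's diffSpliceDGE with Simes' method), while 14.3% of 13889 genes were. The lowest p of a single bin, before adjustment, was 0.0594, in Csf1r. In the exon counts, 3 columns titled fasted CT40 matched best the gene counts of other fasted CT40 livers, so those 4 livers were treated as 1 group without sex.

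Counts in other lists are to be read beside the 32.9% of all genes called lower and 62.5% called in either direction. Of 8 further genes known from Kupffer cells, 6 were called, close to that share, and 4 fell: Folr2 (a folate receptor, -0.99 ± 0.07, adjusted p = 1.16e-16), C6 (-0.53 ± 0.06), Il18bp (-0.34 ± 0.05) and Fcna (-0.20 ± 0.05). Cd163, the receptor that takes up haemoglobin bound to haptoglobin (0.62 ± 0.06, adjusted p = 1.34e-11), and Clec1b (0.46 ± 0.05, adjusted p = 6.36e-12) rose. Slc11a1 (-0.10 ± 0.06) and Cfp (-0.12 ± 0.06) did not pass. C6, a complement component, differed from the other 7 in that it was higher in male control livers (-3.54 for female minus male). Of 19 general macrophage genes, 17 fell, among them Aif1 (-1.15 ± 0.10) and Fcgr1 (-0.64 ± 0.08), and only Mertk, a receptor for dying cells, rose (0.31 ± 0.03). Their median was -0.39, close to the -0.38 of the members.

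Of 9 macrophage transcription factors 6 fell and 1 rose. Those that fell were Id3 (-0.83 ± 0.09), Zeb2 (-0.45 ± 0.04), Spi1 (-0.24 ± 0.07), Irf8 (-0.23 ± 0.06), Tfec (-0.21 ± 0.08) and Nr1h3 (-0.17 ± 0.02). Maf (-0.02 ± 0.04) and Spic (-0.08 ± 0.14) did not pass. Of the 6 growth factors and niche signals, Csf1, the ligand of the Csf1r receptor, fell from 16.2 to 8.86 CPM (-0.88 ± 0.05, adjusted p = 6.49e-19), and Dll1 (-0.38 ± 0.07), Tgfb1 (-0.20 ± 0.05) and Gdf2 (-0.15 ± 0.05) fell with it. Il34, the other ligand of Csf1r, rose from 1.94 to 2.31 CPM (0.25 ± 0.09, adjusted p = 0.00991), and Dll4 (-0.15 ± 0.09) did not pass. Of 10 lysosomal genes 5 rose, led by Ctsl (0.88 ± 0.07), and 4 fell, led by Ctsb (-0.38 ± 0.04), with a median of 0.00. Several of these genes are also expressed in hepatocytes and endothelium.

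**Figure D4:**
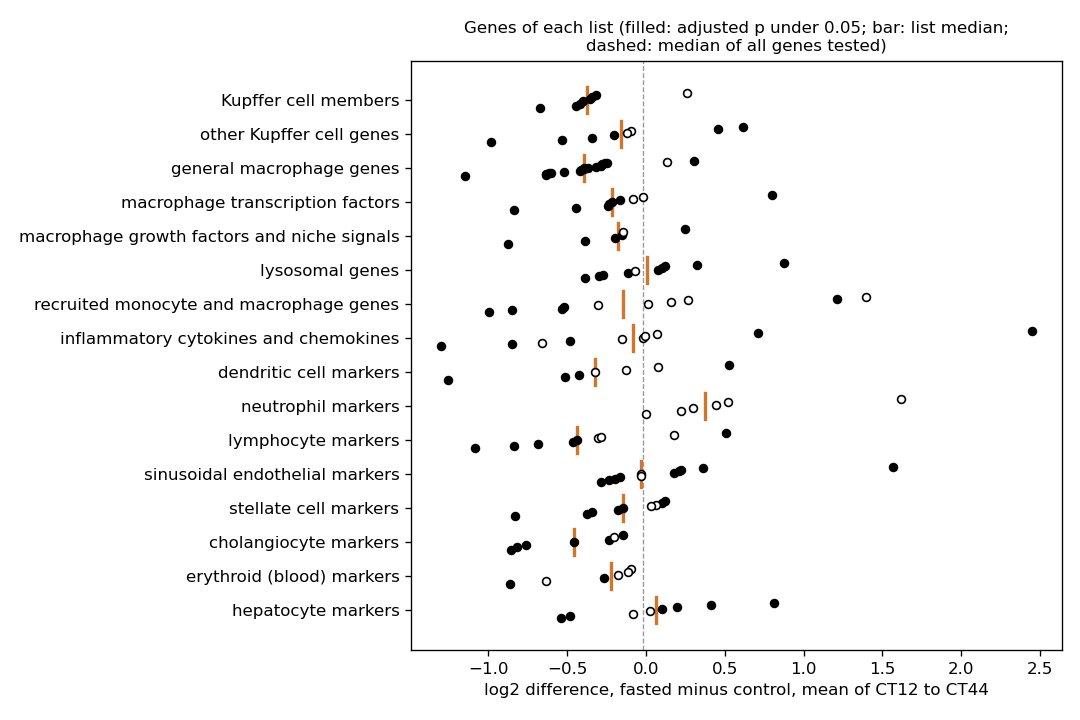
Log2 difference, fasted minus control, averaged over CT12 to CT44 (x axis), of each gene in the member list and 15 other lists (y axis); filled points passed an adjusted p of 0.05, orange bars are list medians and the dashed line the median of all genes tested. The members and the general macrophage genes lie mostly between -0.2 and -0.7, while lysosomal and sinusoidal endothelial genes fall on both sides of 0. The open points of Chil3, Ccl4, Il10 and Mmp8 were fitted from counts near 0 and carry no usable fold.

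Markers of other cells moved in several directions. Sinusoidal endothelial markers split, 5 higher and 4 lower of 11, with Lyve1 (1.57 ± 0.14) and Fcgr2b (-0.29 ± 0.03) the extremes and a summed level of 490 to 807 CPM in fasted and 492 to 722 CPM in control livers. Hepatocyte markers were higher for 4 and lower for 2 of 8, and their summed level had a median of 108170 CPM in fasted and 103837 CPM in control livers. Cholangiocyte markers were lower for 6 of 7 (summed 21.1 to 73.0 CPM fasted, 40.7 to 82.6 CPM control), and lymphocyte markers lower for 5 and higher for 1 of 9, at sums of at most 13.8 CPM. Recruited monocyte genes were lower for 4, among them Ly6c2 and Ccr2, and higher for 1 of 10, Gpnmb. Dendritic cell markers were lower for 3 and higher for 1 of 7, stellate cell markers lower for 5 and higher for 2 of 9, erythroid markers lower for 2 of 6 and neutrophil markers called in neither direction among 6 measured, with Ly6g not among the genes tested. Of 10 measured cytokine and chemokine genes, Il1rn, the antagonist of the interleukin 1 receptor, rose from 1.86 to 10.9 CPM (2.45 ± 0.13) and Ccl2 fell (-1.30 ± 0.18). The part of these cells in the members' differences was not tested.

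The members also varied together between mice given the same treatment, time and sex. After subtracting each group's mean from the log2 CPM, the correlation of the 28 pairs of members over 80 libraries ran from 0.58 (Marco with Vsig4) to 0.94 (Clec4f with Vsig4). Since each group held 2 mice, the 80 deviations came from 40 independent differences, and all genes of a library shared its depth and its piece of tissue. Without the pair of livers farthest apart, control CT40 female 1 and female 2, the pairs ran from 0.55 to 0.93. The 7 pairs with Marco ran from 0.58 to 0.88, the highest with Adgre1.

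**Figure D5:**
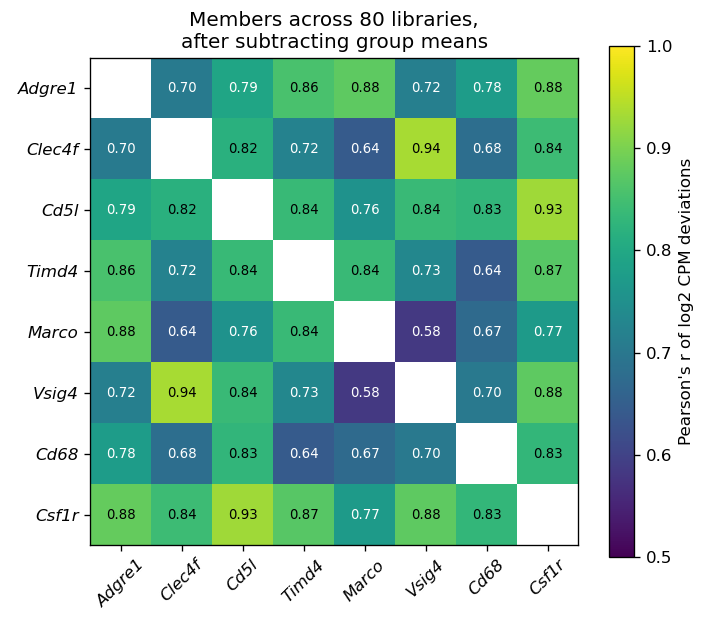
Pearson's r between members (both axes) of deviations of log2 CPM from the group mean over 80 libraries, with yellow for high and dark blue for low values. Clec4f with Vsig4 and Cd5l with Csf1r are the closest pairs, at 0.94 and 0.93, and Marco with Vsig4 the least close, at 0.58.

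Among 13044 genes with a mean of at least 1 CPM, the one most like the mean of the members, the members themselves aside, was Lyz2, which encodes the macrophage lysozyme (r = 0.95). Others of the 15 genes outside the members most like that mean were Tmsb4x (0.95), Tyrobp (0.93), Cybb (0.93), C1qc (0.92), Cd44 (0.91), Cfp (0.91), Sirpa (0.90), C1qa (0.89), C1qb (0.88), Treml4 (0.88), Fyb1 (0.88), Ifi30 (0.88) and Axl (0.87). The median r over all genes compared was -0.04, and 71 genes exceeded 0.8. Both values were taken with the members among the genes compared, each set against a mean that contains it. Of the 15 genes, 9 were also among the 15 most like the mean of the members other than Marco, and 7 among those most like Marco alone.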

How the data were processed

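Libraries were made from liver RNA with a stranded poly(A) kit, and the deposited gene and exon tables hold raw counts of reads that the authors made, per the labels, with Trimmomatic, HISAT2 and GRCm39, DESeq2 being also named; versions and the counting step are not given in the sources used here. No column lacked a sample. Members and gene lists were chosen with earlier results of these data known.

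Counts were analysed in R 4.3.3 with edgeR 4.0.16: TMM scaling, the default low-count filter and the quasi-likelihood test on 40 groups (treatment, time and sex; n = 2 each), with contrasts for the mean over CT12 to CT44, each time, the linear trend per 10 h, sex and a 24 h cosine, and Benjamini-Hochberg adjustment over all genes tested, with a threshold of 0.05. Log2 CPM used a prior count of 2. Exon usage used diffSpliceDGE. Simulated counts were used to test the edgeR contrasts, the 24 h cosine fits and the exon usage test, and no other step. Alternatives used limma 3.58.1 (voom), DESeq2 1.42.0, other filters, a replicate block and left-out libraries. Named genes were all 8 members, up to 2 of the largest called rises and falls of a list (every measured gene for further Kupffer cell genes, transcription factors and niche signals) and the 15 genes most like the members. Some genes counted in these lists are not reported here by name. Lengths are exon unions of GENCODE M21. Totals ran from 25534901 to 59927771 counts per library. No replicate pair agreed within sampling noise (lowest chi-square per degree of freedom 14.8). The labels number replicates within each treatment, time and sex; p-values measure the spread between these samples. Same replicate numbers did not pair the mice, since 1 of 20 pairs correlated above 0.1 (-0.06 to 0.25).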

Additional observations from a re-analysis of the deposited data

Results flagged for a closer look

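In 4 members 1 library stood far from the other 3 of its treatment and time, the gap to the nearest divided by the range of the 4 exceeding Dixon's 95% critical value. Vsig4 in fasted CT40 female 1 had the widest gap (0.9673, at 32.9 CPM), followed by Timd4 in control CT16 female 2 (0.8742, at 11.1 CPM), Marco in fasted CT28 female 2 (0.8482, at 35.0 CPM) and Clec4f in fasted CT44 female 2 (0.8319, at 88.5 CPM). All 4 were the highest of their group and female. These are 4 of 160 groups examined, where chance would give about 8 in independent groups of like mice. Each group held both sexes, the members were higher in control females, and they varied together between livers. The expected number is thus only a guide.

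The fasting difference changed with time, by the test of the slope per 10 h, in Adgre1 (-0.48), Clec4f (-0.32), Timd4 (-0.38), Cd5l (-0.31), Csf1r (-0.27), Vsig4 (-0.24) and Cd68 (-0.20). The rhythm of Cd5l differed between treatments (adjusted p = 0.0319 by edgeR), a call lost without control CT40 female 1 (adjusted p = 0.0696) and with no linear term for time (adjusted p = 0.0887).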

How the results depend on the processing

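Of 1366 values recomputed under alternatives, 1183 were the same, 78 lost a call, 12 gained one, 88 moved and 5 reversed, and the cause was not tested. A difference was the same if it kept its direction and side of the threshold. A count of calls was the same within 1.5 times of the main count, and a correlation inside a confidence interval around its main value. Otherwise the count or correlation had moved. All 189 values of the mean effect of the 7 members that fell kept their direction, and 175 their call; the 14 others subtracted the difference at CT8, which left 0 members called with or without control CT8 female 2. Without the filter on low counts, the members called were 1 for the sex difference of the fasting effect, 2 at CT8, 1 at CT12, 3 at CT24, 4 at CT28, 3 at CT32, 0 for the control rhythm and 5 for the rhythm difference. The control rhythm also called 0 with DESeq2's size factors, limma voom, the replicate block, linear time, a 12 h harmonic, either sex alone or without control CT40 female 1, and the rhythm difference 0 without linear time or control CT40 female 1. At CT24, 1 member was called without control CT8 female 2. At CT28, 2 were called with limma voom and 2 with the replicate block, which besides the control rhythm changed no other count of members by over 1.5 times; at CT44 it left 6 in place of 7, without Marco (adjusted p = 0.0516). The CT40 difference of Marco reversed to 0.00713 with limma voom and to 0.87 without control CT40 female 1. Leaving out 1 replicate number at a time, the members called ranged from 0 to 5 at CT20, 0 to 1 at CT24, 0 to 2 at CT28, 0 to 1 at CT32, 2 to 7 at CT36, 1 to 5 at CT44, 0 to 2 at CT8, 0 to 0 for the control rhythm and 0 to 1 for the rhythm difference, and Marco from -2.07 to 0.22 at CT8, -0.39 to 0.65 at CT36 and -1.39 to 0.51 at CT40. Among all genes, those called at CT8 numbered 282, against 853 without the filter, 4 with limma voom, 11 without control CT8 female 2, 0 with the CT8 libraries alone and 0 to 2123 with a replicate number left out. At CT12 they numbered 340, against 1158 without the filter and 5 to 545 with a replicate number left out. The mean effect called 13233, against 4718 and 3732 after the subtractions, the control rhythm 8417, against 5104 in males and 4692 in females alone, and exon usage 1985, against 946 with the stricter filter and 906 to 1206 with a replicate number left out. The lowest counts with a replicate number left out were 1593 of 5000 for the trend (5 to 7 members), 238 of 2621 for the sex difference of the fasting effect, 2112 of 4955 at CT16, 4784 of 7757 at CT20, 2001 of 5099 at CT24, 1807 of 4448 at CT28, 1198 of 3751 at CT32, 2546 of 5672 at CT36, 5072 of 8459 at CT40, 4545 of 8355 at CT44 and 2636 of 4858 for the rhythm difference. The 2 subtractions of CT8 and the fits without a single named library were chosen after seeing the data, except that without control CT8 female 2.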
